A study of Mus musculus with 37 samples.

Results

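A set of 8 genes that glucocorticoids are known to induce were followed in mice that overexpressed the glucocorticoid receptor (GRov). They were Ddit4, Sgk1, Tsc22d3, Gadd45b, Gadd45g, Sult1a1, Cebpd and Zbtb16. They were taken by matching the RefSeq transcripts of an expression array to the mouse symbols, and each was read by 1 distinct feature, so that they made up 8 of 18835 distinct features. The animals were adult male C57BL/6J mice, left undisturbed and sampled in the morning. In 1 group the receptor was overexpressed in the forebrain in early life, in another for the whole lifetime, and control animals made up the third. Dentate gyrus (DG), the granule cell region of the hippocampus, and nucleus accumbens (NAcc), a part of the ventral striatum, were cut out by laser capture. DG gave 6 control, 6 early and 6 lifetime arrays, and NAcc gave 6, 6 and 7, from 19 animals of which 18 gave both regions. The promoter and cell type that drove the transgene are not given in the sources used here, nor are litters. Whether the single feature of Nr3c1, the gene of the receptor, also reads the transgene is not known.

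The glucocorticoid receptor is a transcription factor that enters the nucleus when it binds corticosterone and activates genes through response elements, or by way of other factors. In mice, corticosterone is low in the morning, at the start of the rest phase, and DG neurons also carry the mineralocorticoid receptor, which binds the hormone more tightly. The 8 genes act in different pathways. Ddit4 (REDD1) inhibits the growth kinase complex mTORC1, Sgk1 is a kinase that acts on ion channels and transporters, and Tsc22d3 (GILZ) is a leucine zipper protein that restrains inflammatory transcription factors. Gadd45b and Gadd45g are small stress proteins that bind kinases of stress signalling and take part in DNA demethylation. Sult1a1 is an enzyme that sulfates phenolic compounds, and Cebpd and Zbtb16 (PLZF) are transcription factors.

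The windows before the transcript starts of 3 genes that differed in DG are shown here, since the 8 genes were grouped as hormone targets. A strict, a middle and a loose form of the glucocorticoid response element were searched on both strands of the 250 bases before each start. They are the arms AGAACA and TGTTCT, the arms GNACA and TGTNC, and the arms ACA and TGT, each pair with any 3 bases between them. Each stricter form contains the looser one. Of 32851 mouse windows of this length in RefSeq (GRCm38.p6), 0.00913%, 0.387% and 5.84% held them. The RefSeq table had 13 windows for 6 of the genes, 6 of them for Sgk1 and 3 for Tsc22d3, and held none for Cebpd and Zbtb16. The strict form stood in 1 of the 13, window 5 of Sgk1 (chr10:21993640-21993889, plus strand), where capitals mark it and its first base lies at -189 from the start. A second Sgk1 window held the loose form alone. Ddit4 (chr10:59951771-59952020, minus strand) and Gadd45g (chr13:51846425-51846674, plus strand) held none of the 3 forms in these windows, which says nothing of other places. The sequences run 5′ to 3′ on the strand of the gene.
Sgk1, window 5: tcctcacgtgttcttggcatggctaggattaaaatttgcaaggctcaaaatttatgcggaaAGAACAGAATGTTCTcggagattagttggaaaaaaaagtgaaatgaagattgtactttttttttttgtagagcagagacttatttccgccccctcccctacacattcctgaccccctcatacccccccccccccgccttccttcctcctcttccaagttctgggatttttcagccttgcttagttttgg
Ddit4: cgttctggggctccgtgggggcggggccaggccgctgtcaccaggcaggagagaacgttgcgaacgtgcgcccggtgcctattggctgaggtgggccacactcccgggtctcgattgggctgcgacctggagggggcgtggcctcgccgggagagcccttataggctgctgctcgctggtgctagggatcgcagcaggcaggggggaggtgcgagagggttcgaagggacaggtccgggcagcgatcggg
Gadd45g: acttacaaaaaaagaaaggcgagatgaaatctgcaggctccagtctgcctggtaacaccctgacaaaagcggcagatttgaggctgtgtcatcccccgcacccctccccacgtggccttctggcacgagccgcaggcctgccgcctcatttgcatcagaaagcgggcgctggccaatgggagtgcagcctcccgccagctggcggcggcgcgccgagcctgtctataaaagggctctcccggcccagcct

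The values are log2 expression values, 1 per transcript and array, so that a difference of 1 is a 2-fold change. Features above the 40th percentile of the region mean were tested, 11301 in each region. All 8 genes passed in DG and 7 in NAcc, where Cebpd did not. "Rose" and "fell" stand for a Benjamini-Hochberg adjusted p under 0.05 from limma over all of those features. The tissue labels were set beside markers. All 15 granule cell markers were higher in DG (median +3.13, lowest +0.22), as were 82.9% of all features, whose median was +0.71. Of these markers 9 passed the NAcc filter, and the others entered the comparison through DG. Of 12 medium spiny neuron markers 11 were higher in NAcc, as were 6.67% of all features. Some of these did not pass the DG filter. The interquartile range of an array's values, a measure of its spread, was 2.71 ± 0.04 (SD, n = 6) in DG controls. It was 2.85 ± 0.09 with early and 2.87 ± 0.10 with lifetime overexpression (n = 6 each). By two-sided exact permutation tests these ranges differed from control in DG (p = 0.00649 and 0.00216) and did not pass between early and lifetime (p = 0.703), nor in NAcc (p = 0.195 to 0.913). In NAcc, early array 5 stood apart, with a mean correlation of 0.773 with the other arrays and an interquartile range of 1.72, and lifetime array 8 had 2.20, the lowest of its group. Nr3c1 itself did not pass in any comparison of the groups, with differences from control in DG of +0.15 (adjusted p = 0.274) and +0.25 (adjusted p = 0.0757), and in NAcc of +0.043 (adjusted p = 0.917) and +0.35 (adjusted p = 1).

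**Figure D1:**
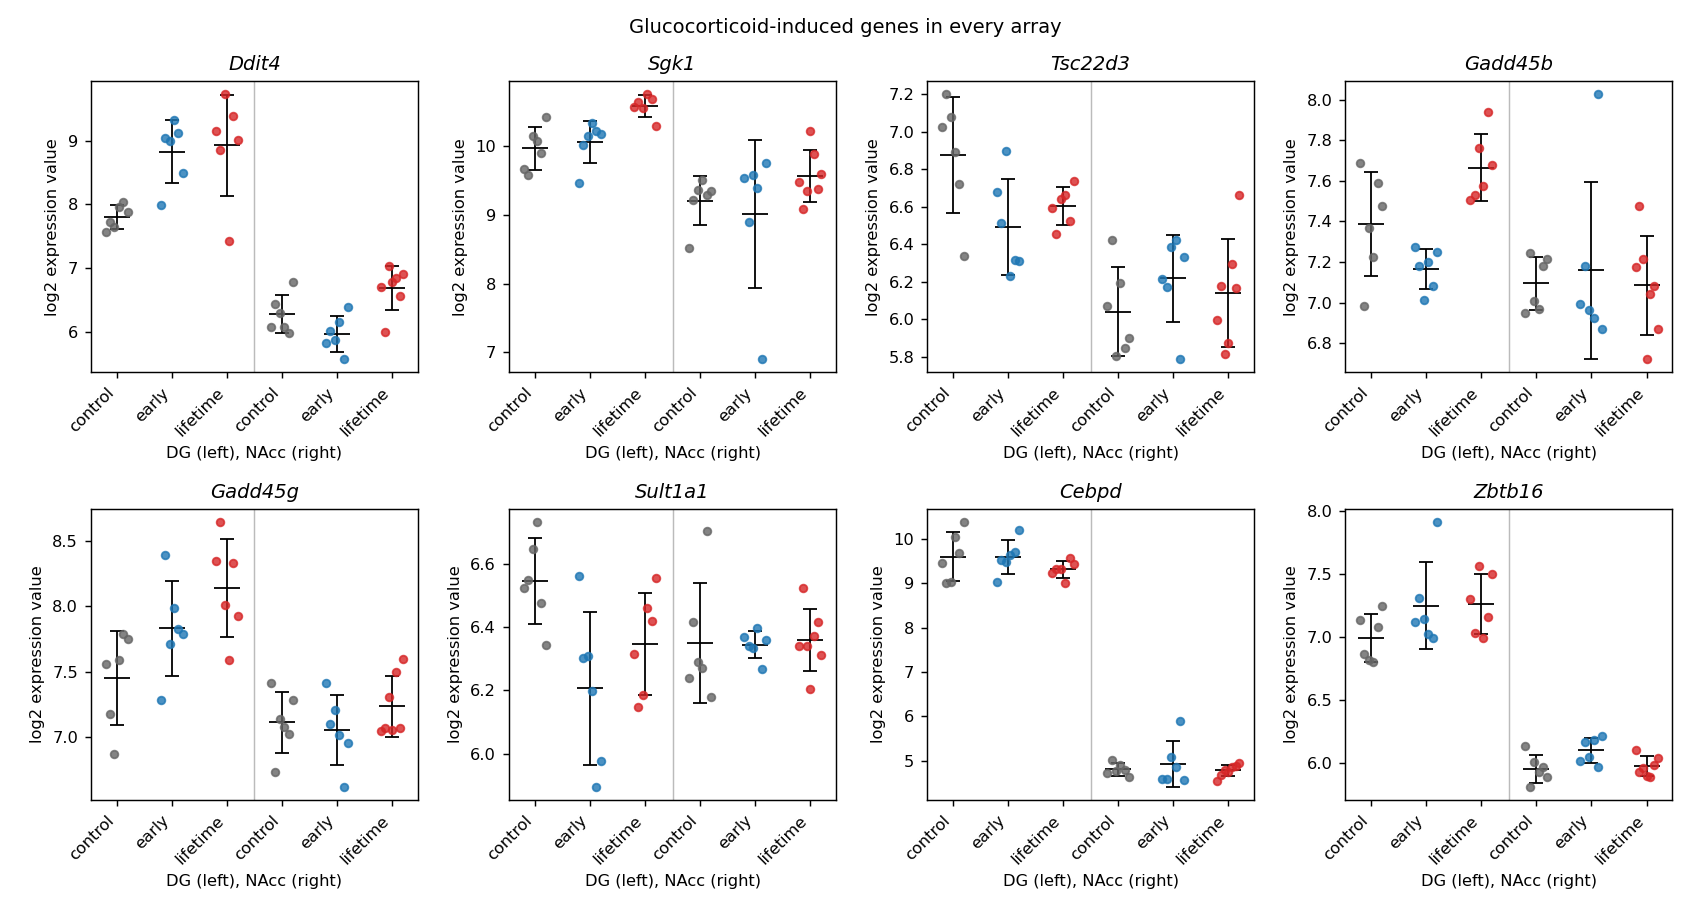
Log2 expression value (vertical axis) of each of the 8 genes on every array, by region and group (horizontal axis), with the group means and SD. Ddit4 in DG runs from 7.57 to 8.04 in control arrays, and 5 of the 6 lifetime arrays lie at 8.86 or above while array 10 lies at 7.42.

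In DG, Ddit4 rose after both early and lifetime overexpression, about 2-fold each time, and Sgk1 and Gadd45g rose after lifetime overexpression. Sult1a1 fell after early overexpression, but it passed the filter through the groups where it was higher. Gadd45b was higher after lifetime than after early overexpression, and Tsc22d3, Cebpd and Zbtb16 passed in none of the DG comparisons. In NAcc no gene of the 8 passed in a comparison with control. Because the tissue was taken in bulk, fewer cells of a type and less RNA per cell cannot be told apart. The p-values measure the spread between these animals, and the early and lifetime comparisons share the same control arrays.

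Ddit4 had a control level in DG of 7.57 at the lowest, 7.80 at the median and 8.04 at the highest (mean 7.80 ± 0.19, SD, n = 6). After early overexpression it was 7.99, 9.02 and 9.33 (mean 8.83 ± 0.49, n = 6), and after lifetime overexpression 7.42, 9.08 and 9.73 (mean 8.93 ± 0.80, n = 6). All 6 early arrays lay above the control mean, and early array 1 overlapped the highest controls. Among the lifetime arrays, 5 lay above every control and array 10 lay below every control. The early difference was +1.02 (SE 0.28, 95% interval 0.43 to 1.61, limma adjusted p = 0.0295), a 2.03-fold change. The lifetime difference was +1.12 (SE 0.28, interval 0.53 to 1.71, adjusted p = 0.0146), a 2.18-fold change, and lifetime and early differed by +0.10 (interval -0.49 to 0.69, adjusted p = 0.972). The early call was lost when early array 3, 4 or 5 or control array 14 or 15 was left out, with differences of +0.92 to +1.01 and adjusted p of 0.0505 to 0.0832, while the lifetime call was kept in each of the 18 fits without 1 array.

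Sgk1 ran in DG from 9.58 over a median of 9.99 to 10.43 in controls (mean 9.97 ± 0.32, n = 6). It ran from 9.47 over 10.16 to 10.33 after early overexpression (mean 10.06 ± 0.31, n = 6), and from 10.29 over 10.60 to 10.76 after lifetime overexpression (mean 10.58 ± 0.16, n = 6). The lifetime arrays were the highest group, and 1 control array reached into their range. Array 10, the lowest lifetime array for Ddit4, was the highest lifetime array for Sgk1 and also for Nr3c1. Sgk1 rose by +0.62 after lifetime overexpression (SE 0.145, interval 0.31 to 0.92, limma adjusted p = 0.0102), a 1.53-fold change, with 6 of 6 arrays above the control mean. A limma fit of both regions with the animal as a random block gave an adjusted p of 0.182 at the same difference. That fit takes 1 variance per feature over DG and NAcc, and Sgk1 had an SD of 1.07 in NAcc early arrays. Each animal gave at most 1 DG array, so the block pairs no arrays within this comparison. What the block and the shared variance each did to this p was not tested. After early overexpression the difference was +0.094 (interval -0.21 to 0.40, adjusted p = 0.681), and lifetime over early was +0.52 (interval 0.22 to 0.82, adjusted p = 0.0910).

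The Gadd45 genes took different courses. Gadd45g ran in DG from 6.88 over 7.57 to 7.79 in controls (mean 7.46 ± 0.36, n = 6), from 7.29 over 7.81 to 8.39 after early (mean 7.83 ± 0.36, n = 6) and from 7.59 over 8.17 to 8.64 after lifetime overexpression (mean 8.14 ± 0.37, n = 6). Only lifetime array 10 lay within the control range. Gadd45g rose by +0.68 after lifetime overexpression (SE 0.19, interval 0.29 to 1.08, limma adjusted p = 0.0227), a 1.61-fold change, and its early difference was +0.38 (adjusted p = 0.180). The lifetime call was lost without lifetime array 7, 8 or 11 or control array 15, with adjusted p of 0.0503 to 0.0527.

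Gadd45b ran in DG from 6.98 over 7.42 to 7.69 in controls (mean 7.39 ± 0.26, n = 6), from 7.01 over 7.19 to 7.27 after early (mean 7.17 ± 0.10, n = 6) and from 7.51 over 7.63 to 7.94 after lifetime overexpression (mean 7.66 ± 0.17, n = 6). The early and lifetime groups did not overlap, and the controls overlapped both. Lifetime exceeded early by +0.50 (SE 0.10, interval 0.28 to 0.72, limma adjusted p = 0.0155), a 1.41-fold change, and 1.73% of all tested features had no overlap between these groups. In the limma fit of both regions with the animal as a random block the adjusted p was 0.0793 at the same difference. The variance of that fit includes NAcc, where Gadd45b had an SD of 0.44 in early arrays, and its part in this p was not tested. Against control, Gadd45b differed by -0.22 after early (adjusted p = 0.149) and by +0.28 after lifetime overexpression (adjusted p = 0.0757), which passed without control array 14 at +0.34 (adjusted p = 0.0435).

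Sult1a1 was the only one of the 8 genes that fell in a comparison of the groups. It ran in DG from 6.34 over 6.54 to 6.73 in controls (mean 6.55 ± 0.14, n = 6), from 5.90 over 6.25 to 6.56 after early (mean 6.21 ± 0.24, n = 6) and from 6.15 over 6.37 to 6.55 after lifetime overexpression (mean 6.35 ± 0.16, n = 6). The groups overlapped, and 5 of 6 early arrays lay below the control mean. The early difference was -0.34 (SE 0.10, interval -0.56 to -0.12, limma adjusted p = 0.0429), and the lifetime difference was -0.20 (adjusted p = 0.188). Its mean over all DG arrays lay close to the filter value of 6.34, and its early mean of 6.21 lay below that value. It therefore passed the filter through the other groups, where it was higher, and its call is no support. The early call held in 7 of 18 fits without 1 array.

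Tsc22d3, which is among the most widely used hormone targets, had DG means of 6.88 ± 0.31 (n = 6) in controls, 6.49 ± 0.26 (n = 6) with early and 6.60 ± 0.10 (n = 6) with lifetime overexpression. Its values ran from 6.34 to 7.20 in controls, from 6.23 to 6.90 after early and from 6.46 to 6.74 after lifetime overexpression, so the groups overlapped. The differences were -0.38 (interval -0.66 to -0.11, limma adjusted p = 0.0591) and -0.27 (interval -0.55 to -0.0025, adjusted p = 0.148). Tsc22d3 was called as lower without control array 19, at -0.49 after early (adjusted p = 0.0170) and -0.38 after lifetime overexpression (adjusted p = 0.0327), and without early array 1, at -0.42 after early overexpression (adjusted p = 0.0377). Cebpd varied more between control animals than between groups, from 9.02 to 10.38 in controls, from 9.03 to 10.20 after early and from 9.02 to 9.58 after lifetime overexpression. Its differences were -0.0027 (interval -0.44 to 0.43) and -0.28 (interval -0.72 to 0.15), with adjusted p of 0.994 and 0.347. Zbtb16 had means of 6.99 ± 0.19 in controls, 7.25 ± 0.35 with early and 7.26 ± 0.24 with lifetime overexpression (n = 6 each), and the groups overlapped. Its differences of +0.26 and +0.27 had adjusted p of 0.215 and 0.192.

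These calls stand against a broad background in DG. After early overexpression 2 of the 8 genes were called, and 11.4% of all tested features were (6.17% higher, 5.26% lower). This count includes Sult1a1, which passed the filter through the groups where it was higher. After lifetime overexpression 3 of 8 were called, all higher, against 15.3% of all features (8.88% higher, 6.45% lower). Between lifetime and early overexpression 1 of 8 was called, against 1.37% of all features. The median difference of the 8 genes was +0.046 after early and +0.27 after lifetime overexpression, and over all features it was -0.0083 and +0.0023.

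**Figure D2:**
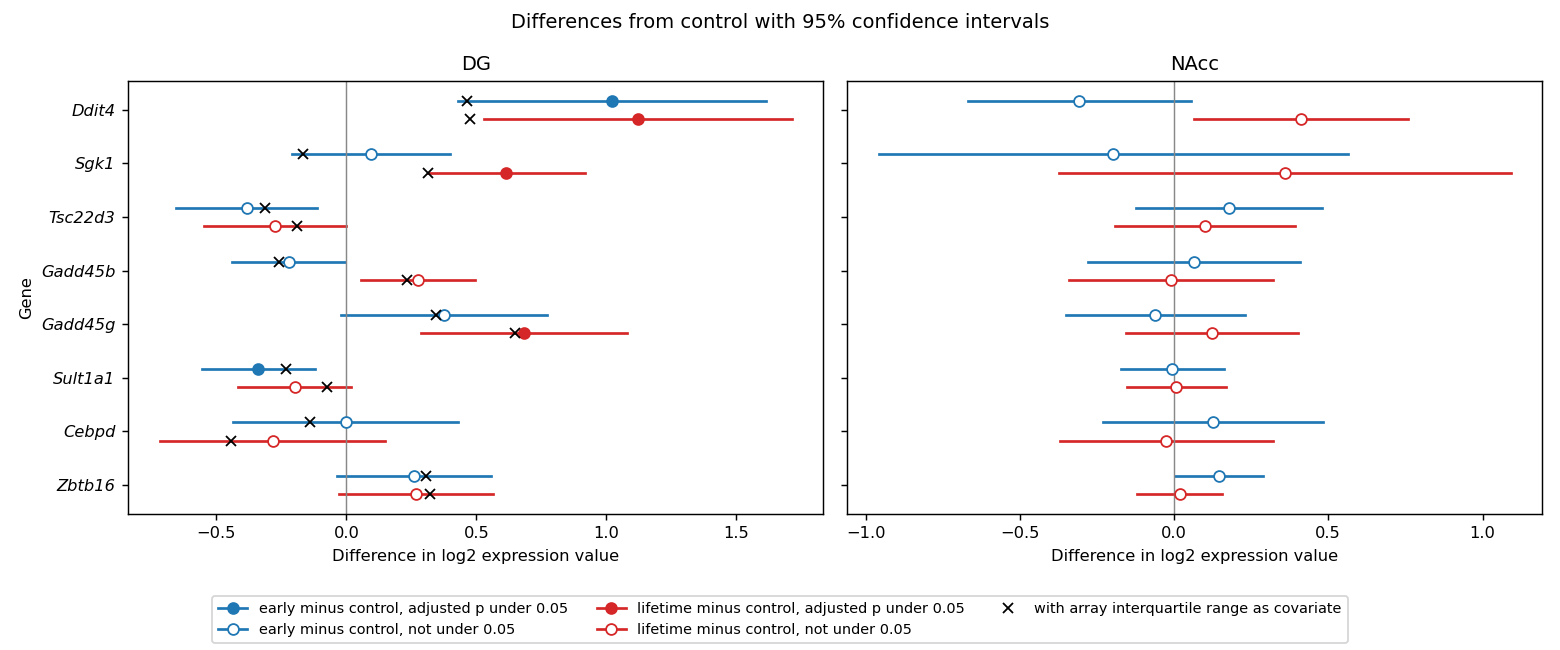
Difference from control in log2 expression value (horizontal axis) with its 95% confidence interval for each gene (vertical axis) in DG and NAcc; filled points have a limma adjusted p under 0.05, and crosses give the DG difference with the interquartile range of the array as a covariate. Ddit4 in DG lies at +1.02 and +1.12, and its crosses lie at +0.46 and +0.48.

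The array spread moved with the DG groups and with some of the genes. Over the 18 DG arrays Ddit4 correlated with the interquartile range at r = 0.79 (permutation p = 7.0e-05, Spearman rho 0.73, p = 0.0007, r = 0.70 without the 2 arrays of most extreme range), and within the control, early and lifetime arrays r was 0.40, 0.85 and 0.48. Sgk1 gave r = 0.64 (permutation p = 0.00465, rho 0.69, p = 0.00204, 0.56 without 2 arrays). For Gadd45g r was 0.45 (permutation p = 0.0625, rho 0.61, p = 0.0081), and 0.048 after the group means were removed. For Gadd45b r was 0.15 over all arrays (permutation p = 0.548, rho 0.092, p = 0.718). Within the control, early and lifetime arrays it was -0.059, -0.72 and 0.72 (n = 6 each), and these within-group values were not tested. Sult1a1 ran the opposite way at r = -0.56 (permutation p = 0.0151, rho -0.67, p = 0.00288, r = -0.63 without 2 arrays), and -0.33 after the group means were removed. Tsc22d3 also ran the opposite way, at r = -0.48 (permutation p = 0.0454, rho -0.54, p = 0.0220), and -0.17 after the group means were removed. Of all tested features, 7.60% correlated with the range as strongly as Ddit4 and 25.7% as strongly as Sgk1, and 36.1% did so as strongly as Sult1a1.

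With the interquartile range as a covariate none of the 8 genes was called against control in DG, where 0.00885% of all features passed for early and 0.655% for lifetime overexpression. Ddit4 then differed by +0.46 (adjusted p = 0.618) and +0.48 (adjusted p = 0.621), less than the differences without it. Sgk1 after lifetime overexpression was at +0.31 (adjusted p = 0.498) and Sult1a1 after early overexpression at -0.23 (adjusted p = 0.562). Gadd45g kept its size at +0.65 (adjusted p = 0.344). Gadd45b between lifetime and early overexpression was called also with the covariate, at +0.49 (adjusted p = 0.0182), as were 1.74% of all features. The covariate takes 1 slope for all groups, while r of Gadd45b with the range was -0.72 in early and 0.72 in lifetime arrays. That difference between the groups was not tested. The part of the array spread in these calls was not tested further.

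**Figure D3:**
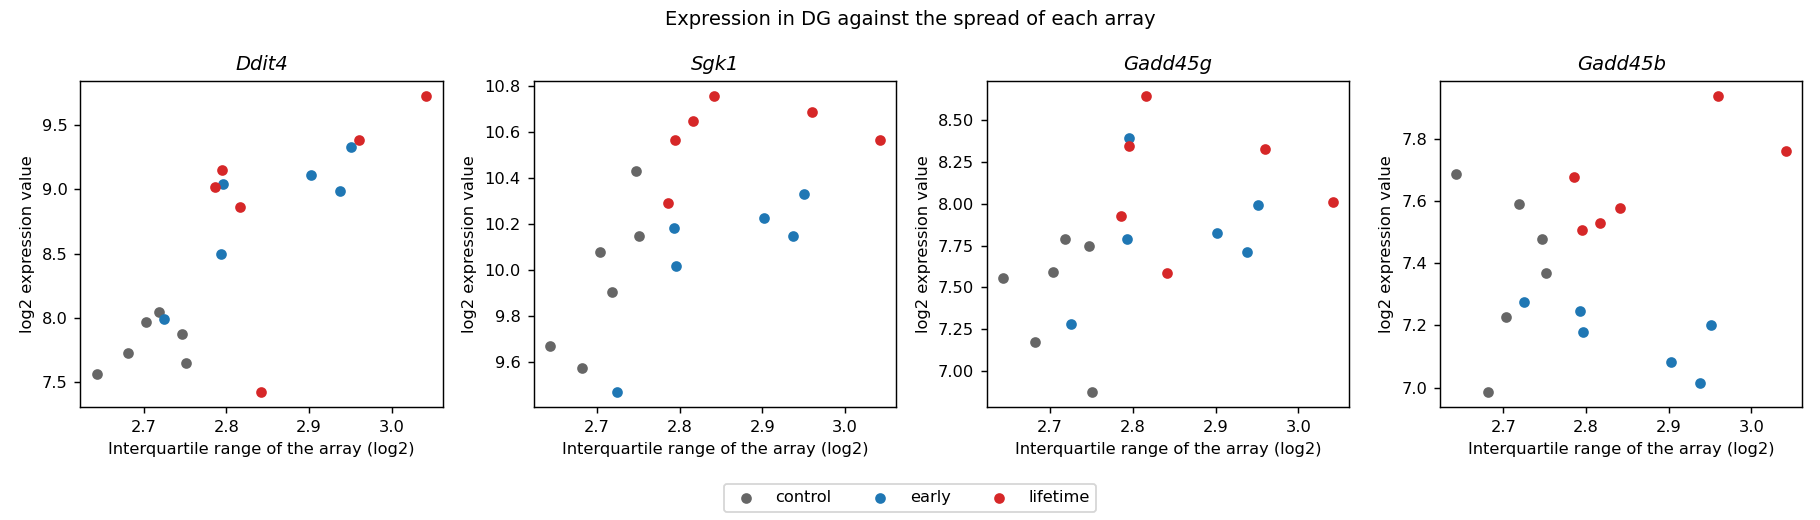
Log2 expression value in DG (vertical axes) of Ddit4, Sgk1, Gadd45g and Gadd45b against the interquartile range of each array's log2 values (horizontal axes), coloured by group. Ddit4 follows the range over the 18 arrays (r = 0.79). Gadd45b separates lifetime from early arrays at similar ranges, with r = 0.15 over all arrays, -0.72 within early and 0.72 within lifetime arrays.

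Markers of some cell types were also called in DG, where 11.4% of all features were called after early and 15.3% after lifetime overexpression. Of 15 granule cell markers 5 rose after early overexpression (median +0.39), among them Sema5a (+0.67) and Il16 (+0.58), and 6 rose and 1 fell after lifetime overexpression (median +0.22). Their mean level on an array ran from 9.25 to 9.94 in controls, from 9.60 to 10.01 after early and from 9.50 to 9.94 after lifetime overexpression. Of 10 tested microglia markers 1 fell after early (Tyrobp, -0.70) and 2 after lifetime overexpression, with medians of -0.21 and -0.24 and array levels of 7.36 to 7.50, 7.11 to 7.53 and 7.08 to 7.45. None of 15 oligodendrocyte markers changed after early and 1 fell after lifetime overexpression (Sox10, -0.34), with medians of -0.12 and -0.31. Of 14 astrocyte markers 1 rose after early and none after lifetime overexpression, none of 8 endothelial markers changed, and of 11 interneuron markers 2 fell after early and 1 rose after lifetime overexpression. The astrocyte, oligodendrocyte and endothelial counts lay below the shares of all features called. The part of the cell type markers in the results for the 8 genes was not tested.

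A list of 34 other genes known to be induced by glucocorticoids held 26 that were tested in DG. After early overexpression 2 of them rose and none fell, against 6.17% of all features that were higher, namely Ehd3, which acts in endosomal transport (+0.33, limma adjusted p = 0.0366), and Rhob, a small GTPase (+0.29, adjusted p = 0.0485). After lifetime overexpression 5 of 26 rose and none fell, against 8.88% of all features higher. They were Rhob (+0.44, adjusted p = 0.00549), Ehd3 (+0.32, adjusted p = 0.0362), Bcl6, a transcriptional repressor (+0.29, adjusted p = 0.0424), Klf9, a transcription factor (+0.23, adjusted p = 0.0230), and Errfi1, an inhibitor of the EGF receptor (+0.22, adjusted p = 0.0497). The list's medians were -0.018 and +0.075, close to those of all features. Fkbp5, the receptor's co-chaperone, and the clock gene Per1, both common readouts of the hormone and chosen here after their values were seen, differed by +0.11 and +0.038 after early (adjusted p = 0.40 and 0.788) and by +0.13 and +0.10 after lifetime overexpression (adjusted p = 0.309 and 0.433). Between lifetime and early overexpression none of the list passed, the smallest p being those of Pik3r1, a regulatory subunit of PI3 kinase (+0.28, adjusted p = 0.107), and Sesn1, a stress-induced inhibitor of mTORC1 (-0.33, adjusted p = 0.278).

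Relatives of the 8 genes were covered by a list of 22, of which 13 were tested in DG. Of these 2 changed after early and 3 after lifetime overexpression, against 11.4% and 15.3% of all features. After early overexpression Tsc22d2 rose (+0.46, limma adjusted p = 0.0216) and the sulfotransferase Sult5a1 fell (-0.27, adjusted p = 0.0331). After lifetime overexpression Tsc22d1 rose (+0.25, adjusted p = 0.0404), while Sult5a1 (-0.32, adjusted p = 0.0111) and Cebpb, the relative of Cebpd (-0.32, adjusted p = 0.0166), fell. Cebpb was also lower after lifetime than after early overexpression (-0.56, adjusted p = 0.000555). Around mTORC1, the complex that Ddit4 inhibits, 1 of 13 tested genes of 18 changed in each comparison with control, which is below the share of all features called (11.4% and 15.3%). Eif4ebp2 rose after early (+0.30, adjusted p = 0.0430) and Eif4ebp1 fell after lifetime overexpression (-0.41, adjusted p = 0.0493), both repressors of translation that mTORC1 phosphorylates. Of 12 tested immediate early genes none changed after early overexpression, against 11.4% of all features. Jun (+0.78, limma adjusted p = 0.0137) and the growth factor gene Bdnf (+0.51, adjusted p = 0.00889) rose after lifetime overexpression, where 15.3% of all features were called. The genes named for mTORC1 and the immediate early list were chosen after their values were seen.

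In NAcc none of the 7 tested genes passed in any comparison. Of all tested features 0% were called after early overexpression, 0% after lifetime overexpression and 0.00885% between lifetime and early, while 556, 415 and 598 of them had an unadjusted p under 0.05 in limma. Ddit4 again showed the widest differences. It ran from 5.98 over 6.19 to 6.79 in controls (mean 6.28 ± 0.30, n = 6), from 5.57 over 5.94 to 6.39 after early (mean 5.97 ± 0.28, n = 6) and from 5.99 over 6.78 to 7.03 after lifetime overexpression (mean 6.69 ± 0.34, n = 7). Early array 5 and lifetime array 8, the arrays of smallest spread in their groups, were also the lowest in Ddit4. Lifetime differed from early by +0.72 (SE 0.17, limma adjusted p = 0.504), and 7 of 7 lifetime arrays lay above the early mean. It differed from control by +0.41 (limma adjusted p = 1), with 6 of 7 arrays above the control mean. Without these 2 arrays both were called, at +0.75 (adjusted p = 0.0273) and +0.53 (adjusted p = 0.0389), and 0.133% and 2.47% of all features then passed. The early difference from control was -0.31 (adjusted p = 0.784).

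The other genes of the 8 differed little between the groups of NAcc. Sgk1 ran from 8.52 over 9.32 to 9.51 in controls, from 6.90 over 9.46 to 9.76 after early and from 9.08 over 9.47 to 10.22 after lifetime overexpression. The early group held the lowest value, on array 5, and its other arrays lay among the controls and above them. Sgk1 differed from control by -0.20 and +0.36 (adjusted p = 0.845 and 1), and by +0.23 for early without the same 2 arrays (adjusted p = 0.681). Gadd45b reached 8.03 on early array 5, while its other early arrays ran up to 7.18. Zbtb16 ran from 5.81 to 6.13 in controls and from 5.97 to 6.21 after early overexpression, a difference of +0.15 (limma adjusted p = 0.784), and 6 of 6 early arrays lay above the control mean. Tsc22d3, Gadd45g and Sult1a1 differed from control by -0.061 to +0.18. Cebpd, which did not pass the filter, ran from 4.63 to 5.02 in controls, from 4.56 to 5.90 after early and from 4.55 to 4.94 after lifetime overexpression, with the highest value on early array 5.

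Among the 27 other glucocorticoid-induced genes tested in NAcc, none passed in any comparison. The smallest p after early overexpression belonged to Pik3r1 (+0.37, limma adjusted p = 0.784), and after lifetime overexpression to Rhob (+0.37) and Per1 (-0.15), both with an adjusted p of 1. Rhob (+0.54) and Nfkbia, the inhibitor of NF-kappa-B (+0.39), had the smallest p between lifetime and early, with an adjusted p of 0.572 each.

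Whether the change differed between regions was tested on the difference of DG and NAcc within each of the 18 animals. None of the 8 genes passed, and 0% of all features did for early and 0.593% for lifetime overexpression. The Ddit4 change was larger in DG by 1.33 after early overexpression (SE 0.33, interval 0.64 to 2.02, limma adjusted p = 0.130) and by 0.75 after lifetime overexpression (SE 0.33, interval 0.057 to 1.44, adjusted p = 0.395). Without animal 10 both passed, at 1.33 (limma adjusted p = 0.0465) and 1.07 (adjusted p = 0.0328). In the same fits 30 and 191 of all features passed, against 0 and 67 with it. Animal 10 belongs to the lifetime group, so leaving it out left the early difference as it was and changed only the variance of its test. The Tsc22d3 change was lower in DG by 0.56 after early overexpression (difference -0.56, interval -0.90 to -0.23, adjusted p = 0.159), and the Gadd45g change was higher there by 0.62 after lifetime overexpression (interval 0.13 to 1.11, adjusted p = 0.300).

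In the 18 animals 7 of the 8 genes were called as higher in DG than in NAcc. This count includes Cebpd and Zbtb16, whose calls are no support since they entered the comparison only through DG. Cebpd, Ddit4 and Zbtb16 had the widest differences. However, 89.6% of all features were called between the regions (82.9% higher, 6.67% lower), and the median of all features was itself +0.71. The median value of an array ran from 6.79 to 6.93 in DG and from 6.13 to 6.50 in NAcc. Nr3c1 was higher in DG by +0.71 as well, in 18 of 18 animals, and lay +0.0063 from the median of all features. After all arrays were quantile normalized together 36.9% were higher and 35.4% lower. Cebpd had a mean of 4.83 in NAcc, below the filter value of that region, and entered this comparison through its DG mean of 9.51. Its difference of +4.68 (per animal 3.81 to 5.75) is therefore given as a description, and its size rests on a NAcc mean at percentile 12.4 of all features. Ddit4 was higher by +2.22 (SE 0.18, adjusted p = 1.16e-10), with per-animal differences of 0.64 to 3.54, the lowest in animal 10, and +1.51 beyond the median. Zbtb16 was higher by +1.16 (SE 0.06, 18 of 18 animals) and Sgk1 by +0.94 (SE 0.15, 17 of 18 animals), or +0.46 and +0.24 beyond the median. Zbtb16 passed the filter of NAcc itself, but its NAcc mean of 6.00 lay below the value of 6.07 used for this comparison.

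For the other genes the direction between regions depended on the scaling. Gadd45g was at +0.69, which is -0.015 against the median of all features, and at -0.026 after joint quantile normalization. Tsc22d3 was at +0.55 and turned to -0.11 with arrays centred on their medians, and Gadd45b was at +0.28 and turned to -0.38. Sult1a1 was at +0.013 (adjusted p = 0.846, 9 of 18 animals higher in DG) and turned to -0.65. Among the relatives, Cebpb (+2.57) and Zbtb20, a transcription factor of hippocampal neurons (+2.61), also had high values in DG, and Sgk3 was lower there (-0.47). Cebpb did not pass the NAcc filter and entered through DG, so its difference is given as a description.

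**Figure D4:**
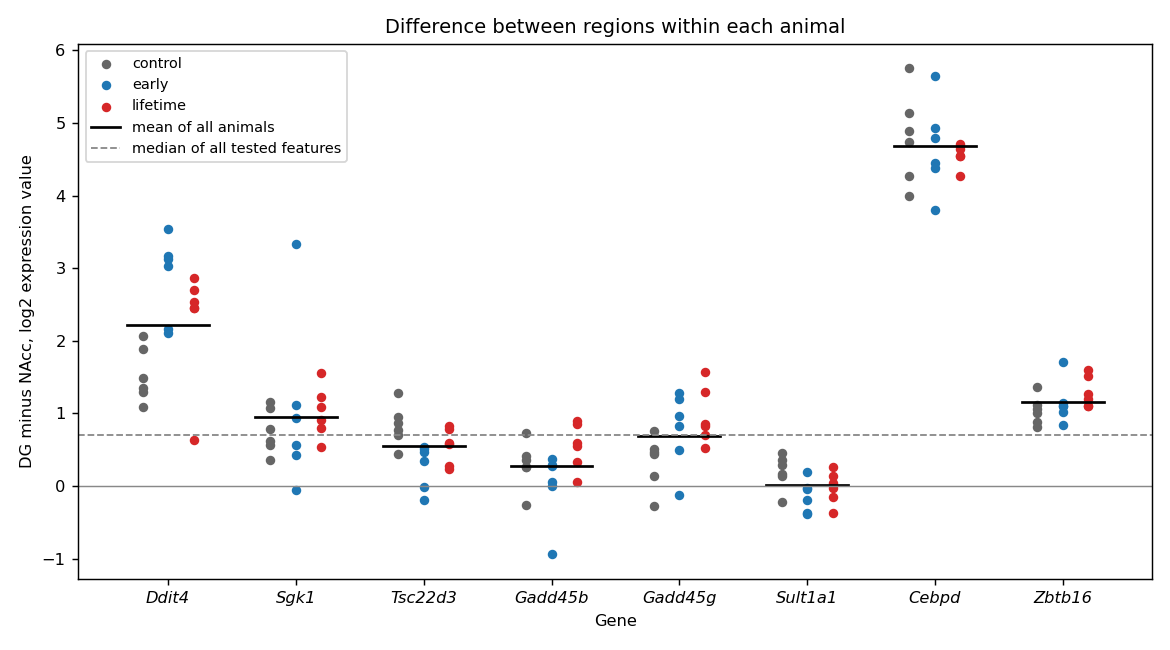
DG minus NAcc in log2 expression value (vertical axis) within each of the 18 animals for each gene (horizontal axis), coloured by group, with the mean of all animals and the median of all tested features. Cebpd lies at 3.81 to 5.75 in every animal, and Ddit4 at 0.64 to 3.54 with animal 10 the lowest.

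The relation to Nr3c1 across arrays was followed last, since the level of the receptor varied between arrays of the same group. Over the 18 DG arrays Sgk1 was the only one of the 8 genes with a slope on Nr3c1 that passed, at 1.20 log2 per log2 of Nr3c1 (SE 0.37, limma adjusted p = 0.0280), and 20.1% of all features passed. Its r was 0.60 (permutation p = 0.00741), rho was 0.61 (p = 0.00915), and r was 0.46 without lifetime arrays 9 and 10. Of all tested features 18% correlated with Nr3c1 as strongly. Within control, early and lifetime arrays r was 0.48, 0.39 and 0.60 (exact permutation p = 0.308, 0.369 and 0.175, n = 6 each). With the groups as terms the slope was 0.70 (adjusted p = 0.193), none of the 8 genes passed and 14.3% of all features did, and with the interquartile range as a covariate it was 0.59 (adjusted p = 0.493). The slope ran from 1.09 to 1.31 over the fits without 1 array and lost the call without lifetime array 9, 10 or 11 or control array 14 or 18.

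Ddit4 showed no slope on Nr3c1 in DG that passed (1.14, SE 0.83, adjusted p = 0.345; r = 0.30, permutation p = 0.230, rho 0.36, p = 0.148). Lifetime array 10 had the highest Nr3c1 at 8.65 and the lowest Ddit4 at 7.42, and without it the slope was 2.64 (limma adjusted p = 0.0179). Within control, early and lifetime arrays r was -0.23, 0.31 and -0.37 (exact permutation p = 0.628, 0.539 and 0.542, n = 6 each). After the group means were removed it was -0.15 over all DG arrays. With the interquartile range as a covariate the slope turned to -2.48 (adjusted p = 0.0143), where 11.1% of all features passed. The slopes of the other 6 genes ran from -0.50 for Cebpd to +0.17 for Gadd45b, with adjusted p of 0.435 to 0.953.

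In NAcc 3 of 7 tested genes had a slope on Nr3c1 that passed, but 64.3% of all features did, and with the groups as terms it was the same 3 genes and 67.2% of all features. Sgk1 had a slope of 1.98 (SE 0.29, limma adjusted p = 0.000117; r = 0.84, permutation p = 1e-05, the smallest the resamples can give, rho 0.81, p = 6.0e-05). Ddit4 had a slope of 0.95 (SE 0.26, adjusted p = 0.00370; r = 0.65, permutation p = 0.00256, rho 0.58, p = 0.0107). Gadd45b ran the opposite way at -0.74 (SE 0.15, adjusted p = 0.000712; r = -0.76, permutation p = 0.00034, rho -0.53, p = 0.0201). Without early array 5 and lifetime array 10, the farthest in Nr3c1, r was 0.70, 0.49 and -0.44. Without early array 5 and lifetime array 8, Sgk1 alone passed, at 1.22 (adjusted p = 0.00383) against 16.7% of all features, while Ddit4 was at 0.84 (adjusted p = 0.0818) and Gadd45b at -0.34 (adjusted p = 0.0861).

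Nr3c1 itself followed the array spread, with r = 0.74 in DG and 0.79 in NAcc, and 13.2% and 46.4% of all features did so as strongly. In NAcc, Sgk1 and Gadd45b correlated with the interquartile range at r = 0.91 and -0.89 (permutation p = 0.00017 and 2.0e-05, rho 0.82 and -0.65), more strongly than with Nr3c1, and r fell in size to 0.69 and -0.68 without 2 arrays. With the range as a covariate none of the genes had a slope on Nr3c1 in NAcc that passed, and the relation of Sgk1 to Nr3c1 with the range removed from both was r = 0.49. Of all features 1.87% correlated with Nr3c1 as strongly as Sgk1 in NAcc, 14.1% as strongly as Gadd45b and 40.5% as strongly as Ddit4. Within the lifetime arrays of NAcc Sgk1 and Nr3c1 gave r = 0.88 (exact permutation p = 0.00437, n = 7) and within controls 0.54 (exact permutation p = 0.153, n = 6).

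**Figure D5:**
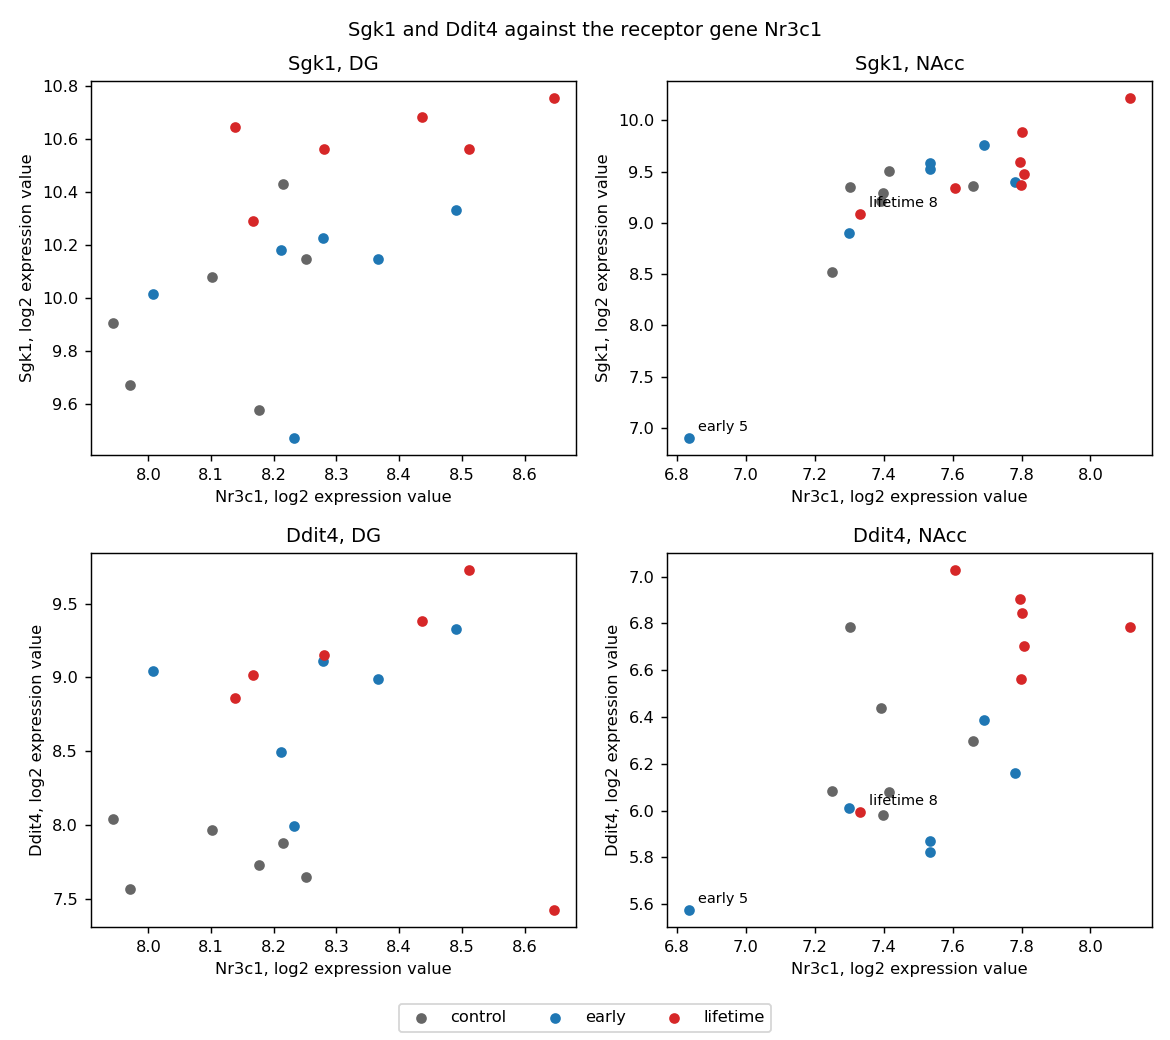
Log2 expression value of Sgk1 and Ddit4 (vertical axes) against that of Nr3c1 on the same array (horizontal axes) in DG and NAcc, coloured by group, with NAcc arrays early 5 and lifetime 8 marked. In DG the lifetime array with the highest Nr3c1 (8.65) has the lowest Ddit4 (7.42).

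Among themselves the 8 genes did not vary as 1 group. After group means were removed, the 28 pairs in DG correlated at -0.75 (Tsc22d3 with Cebpd) to 0.60 (Tsc22d3 with Sult1a1), with a median of 0.055. The 21 pairs in NAcc correlated at -0.86 (Sgk1 with Gadd45b) to 0.48, with a median of 0.11. These are descriptions over 18 and 19 arrays that share the same normalization and spread. The features most like each gene in DG were Sipa1l2 (r = 0.97) and Anapc7 (0.94) for Ddit4, Grm5 (0.93) and Sphkap (0.92) for Sgk1, Stmn2 (0.90) and Ociad2 (0.88) for Tsc22d3, and Kctd20 (0.80) and Fam32a (0.79) for Gadd45b. For Gadd45g they were Blmh (0.91) and Stk11 (0.89), for Sult1a1 Ly6a (0.87) and Fam107a (0.84), for Cebpd Banp (0.94) and Lmo7 (0.91), and for Zbtb16 A230072C01Rik (0.82) and Mbd6 (0.79). In NAcc they were Pgam5 (0.85) and Champ1 (0.84) for Ddit4, Snx13 (0.97) and Gpr85 (0.96) for Sgk1, Pfkm (0.87) and Osbpl2 (0.87) for Tsc22d3, and Ccin (0.97) and Tagln2 (0.96) for Gadd45b. Rars (0.84) and Ddrgk1 (0.83) were the most like Gadd45g there, Ifitm3 (0.79) and Hint3 (0.76) the most like Sult1a1, and Patl1 (0.72) and Mok (0.70) the most like Zbtb16.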

How the data were processed

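The authors deposited log2 expression values made with RMA, per the submitters' processing notes; its version, the array definition and the genome build are not given in the sources used here. Per the labels' protocols, RNA was isolated with a PicoPure kit from 12 µm coronal sections and amplified in 2 rounds. The table held 24142 transcript accessions. Those with identical values (5307 repeats) were merged into 18835 features. A RefSeq table of assembly GRCm38.p6 gave symbols to 20920 accessions, and 17260 features had a single one. The 8 genes and all lists were chosen with earlier results of these data known.

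For each region a separate linear model with 1 variance per feature was fitted to the 3 groups (limma 3.58.1, lmFit and eBayes, R 4.3.3). Only features whose mean exceeded the 40th percentile entered (log2 values of 6.34 in DG, 5.77 in NAcc and 6.07 in the paired comparison). Tests were two-sided with Benjamini-Hochberg adjustment over the 11301 features tested (11300 for slopes on Nr3c1), at a threshold of 0.05. DG and NAcc were compared with the animal as a fixed block. Arrays of both regions with equal numbers in their titles were treated as 1 animal, because the series' design text says that sections were collected for each animal. The consensus correlation within animals was 0.060 over DG features and 0.055 over NAcc features. Correlations of the 8 genes with Nr3c1 and with array spread used 100000 permutations (scipy 1.17.1, Python 3.11.15), exact within groups. The 8 genes were related to each in each region, and adjustment across features is that of the limma slopes. The code was tested on simulated data.

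Named were the 8 genes and Nr3c1, up to 3 cell type markers a list, and the 2 genes of highest correlation with each of the 8. Other induced genes were named in comparisons of the groups, the 4 of largest change per direction among those called. Where none was called, the 2 of smallest p were named. Every relative that passed in a comparison of the groups within a region was named. The slopes of these 2 lists on Nr3c1 are not given here. Errfi1 was added after its value was seen, as were the 3 relatives named between regions. Alternatives covered the filter (none, or the 60th percentile), the scaling (quantile, median centring), the variance model, weights per array, the samples in the fit, 1 feature per gene, an adjusted p of 0.10, the array interquartile range as a covariate, the animal as a random block, the groups as terms, the control animals alone, and fits without single arrays or both outlying ones. Nr3c2 was not analysed here, and listed symbols without a feature were not used. All 37 array columns matched a sample.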

Additional observations from a re-analysis of the deposited data

Results flagged for a closer look

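In 5 of 54 combinations of 9 genes (the 8 and Nr3c1) and 6 groups the highest or lowest array lay farther from the others than the 95% critical value of Dixon's test allows, where chance alone gives about 1 in 20. Sgk1 was low on DG early array 1, at 9.47 against 10.02 for the nearest array of the group. The same array also had the lowest Ddit4 of its group. In NAcc, Sgk1 was low on control array 14, at 8.52 against 9.22 for the nearest. On NAcc early array 5 Sgk1 was low, at 6.90 against 8.90, and Gadd45b was high, at 8.03 against 7.18. This array had the smallest interquartile range of all arrays, 1.72. Zbtb16 was high on DG early array 6, at 7.91 against 7.31 for the nearest.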

How the results depend on the processing

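The 7 genes called between the regions, the 3 called in DG after lifetime overexpression and the absence of calls in NAcc after early overexpression kept their counts within 1.5 times under the settings tried, except where named here; with a replicate block (the animal as a random block) the lifetime count in DG was 2. After early overexpression in DG 1 gene (Ddit4) was called in place of 2 with median centring, further quantile normalization, a 60th percentile filter or a fit of the 2 groups alone, and 0 with the interquartile range as a covariate, which also gave 0 after lifetime overexpression. Between lifetime and early in DG 2 genes (Gadd45b and Sgk1) were called with array weights or an adjusted p of 0.10, and 0 with the replicate block. In NAcc 1 gene (Ddit4) was called after lifetime overexpression against control and against early with array weights, and likewise without both outlying arrays (early 5 and lifetime 8). Slopes on Nr3c1 in DG gave 0 calls in place of 1 after further quantile normalization and with groups as terms. In NAcc they gave 7 after further quantile normalization, 6 after median centring, 0 with the range as a covariate and 1 without both outlying arrays, in place of 3. The cause of these changes was not tested, apart from the feature that the stricter filter removed (Sult1a1).

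Leaving out 1 array at a time gave 0 to 3 genes after early overexpression in DG and 0 to 1 for the Nr3c1 slope in DG. Leaving out 1 animal gave 0 to 1 for the change in DG minus that in NAcc, after early and after lifetime overexpression. Between DG and NAcc it gave 7 genes called each time, counting Cebpd and Zbtb16, which entered through DG.

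Signs turned as follows. Of the results concerned only the region differences of Tsc22d3, Gadd45b and Gadd45g had been called as reported; of the turned values those of Gadd45b and Sult1a1 between regions under both scalings, the Sult1a1 slope in NAcc after further quantile normalization and the Ddit4 slope in DG with the range as a covariate passed the threshold. Further quantile normalization gave -0.011 for Zbtb16 (lifetime against early, DG), +0.011 for Tsc22d3 (the same, NAcc), and slopes of -0.24 for Gadd45g in DG and +0.26 for Sult1a1 in NAcc. Median centring gave +0.057 for Cebpd (early, DG), -0.0037 for Zbtb16 (lifetime against early, DG), +0.0022 for Gadd45b (lifetime, NAcc) and a Sult1a1 slope of +0.19 in NAcc. Between regions it gave -0.11 for Tsc22d3, -0.38 for Gadd45b and -0.65 for Sult1a1, and joint quantile normalization gave -0.052, -0.47 and -0.59, and -0.026 for Gadd45g. Array weights gave +0.042 for Cebpd (early, DG). In NAcc they gave +0.33 for Sgk1, -0.11 for Gadd45b, +0.019 for Gadd45g and +0.016 for Sult1a1 (early), +0.0095 for Gadd45b (lifetime), and +0.12 for Gadd45b and -0.012 for Sult1a1 (lifetime against early).

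The interquartile range as a covariate gave -0.17 for Sgk1 (early, DG). In NAcc it gave +0.056 for Sgk1 and -0.048 for Gadd45b (early), and +0.092 and +0.14 for Gadd45b (lifetime against control and against early). With it the slopes in DG were -0.50 for Zbtb16, +0.30 for Tsc22d3, -1.60 for Gadd45g, -2.48 for Ddit4 and +0.47 for Sult1a1, and in NAcc -0.0085 for Zbtb16, -0.32 for Tsc22d3 and -0.26 for Gadd45g. Groups as terms gave DG slopes of -0.45 for Zbtb16, +0.00020 for Tsc22d3, -0.15 for Gadd45b, -1.17 for Gadd45g, -0.48 for Ddit4 and +0.017 for Sult1a1. Without both outlying arrays the early differences in NAcc were +0.23 for Sgk1, -0.11 for Gadd45b, +0.026 for Gadd45g and +0.0098 for Sult1a1. Lifetime against control was -0.020 for Sult1a1, lifetime against early was +0.034 for Gadd45b and -0.029 for Sult1a1, and the Zbtb16 slope was -0.0044.

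Without 1 array at a time the DG differences that changed sign ran over -0.12 to +0.15 for Cebpd (early), and over -0.066 to +0.40 for Ddit4 and -0.051 to +0.14 for Zbtb16 (lifetime against early). DG slopes ran over -0.15 to +0.23 for Zbtb16, -0.0013 to +0.35 for Gadd45b and -0.12 to +0.33 for Gadd45g. Early differences in NAcc ran over -0.35 to +0.23 for Sgk1, -0.11 to +0.12 for Gadd45b, -0.14 to +0.026 for Gadd45g and -0.040 to +0.065 for Sult1a1. Lifetime differences there ran over -0.011 to +0.054 for Zbtb16, -0.075 to +0.050 for Gadd45b and -0.026 to +0.078 for Sult1a1, and against early over -0.14 to +0.099 for Gadd45b and -0.014 to +0.039 for Sult1a1. The Sult1a1 slope in NAcc ran over -0.088 to +0.057, and the Sult1a1 region difference over -0.014 to +0.036 without 1 animal. The early change in DG minus that in NAcc ran over -0.16 to +0.51 for Sgk1 and -0.32 to +0.063 for Cebpd.

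The replicate block was fitted over both regions with 1 shared variance per feature. It took the call from Sgk1 in DG after lifetime overexpression (limma adjusted p = 0.182) and from Gadd45b between lifetime and early (adjusted p = 0.0793). No other call of the 8 genes changed with it. The block and the shared variance were not tested apart. Leaving the animal out of the comparisons between regions changed none. The number of arrays limits the precision and the 1 feature per gene allows no check between probes.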

Other observations

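DG and NAcc of the same animal were compared gene by gene, after group means were removed, over 18 animals. Zbtb16 gave r = 0.46 (permutation p = 0.0517, Spearman rho 0.42, p = 0.0809, r = 0.40 without the 2 animals of most extreme DG value), and 5.41% of all features had as high a value. The other 7 genes ran from -0.21 for Gadd45b to 0.27 for Tsc22d3, with permutation p of 0.285 and above. Nr3c1 gave r = 0.48 (permutation p = 0.0441, rho 0.49, p = 0.0392, 0.35 without 2 animals), and 4.86% of all features had as high a value. The median of all features was 0.066. The p-values are not adjusted over the 9 genes compared.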
